A study of Mus musculus with 12 samples.

Results

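Interferon-stimulated genes were followed in 3 mouse T-ALL lines treated with PKF118-310. They are genes whose transcription rises when a cell senses interferon, and 35 of them were taken by symbol from the 52535 genes counted in every library. Lines 240, 242 and 352 are CD4/CD8 double positive T-cell leukemia lines, each from a mouse carrying 2 transgenes, Dlx5 and an activated Akt2 (Lck-Dlx5;Lck-MyrAkt2). The Lck promoter drives both transgenes in T-lineage cells, and control as well as treated cells carry them. In the study the controls received a placebo. Per line, 1 library was made from control cells and 1 from cells given PKF118-310, an inhibitor of the contact between β-catenin and Tcf transcription factors. Neither the dose nor the length of the treatment is given in the labels, and the age of the mice is not given there either. Each group thus holds 3 libraries, 1 per line, and a p-value below measures the spread between the lines in its fit, which are all 3 or lines 240 and 352 alone.

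Interferons are secreted cytokines that bind receptors on the cell surface. Type I interferons act through Ifnar1 and Ifnar2 and the kinases Jak1 and Tyk2, and a complex that holds Stat2 and Irf9 then binds a DNA element called the interferon-stimulated response element (ISRE). Interferon γ acts through Ifngr1 and Ifngr2, and its targets often carry a gamma-activated site (GAS). The induced genes include sensors of viral RNA, proteins that block viral replication, and the transcription factors of the pathway itself, some of which are present in T cells without any stimulus.

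The ISRE core was searched on both strands as a pair of GAAA tetramers with 2 bases of any kind between them (TTTC on the opposite strand), and the GAS as TTCNNNGAA, which reads the same on both strands. The windows ran from 250 bases before the transcription start to 50 bases after it, from RefSeq on GRCm38.p6. Of the 35 members, 26 had a window. The ISRE core was found in 14 of these 26, against 3.99% of all 27025 promoters, and the GAS in 9 of 26, against 9.55%. Other interferon-stimulated genes, outside the 35, held the ISRE core in 20 of 36 windows and the GAS in 7. The 12 interferon genes themselves held them in 6 and 4 windows. The promoters of 6 genes are shown because the results below turn on these genes: Ifit1, Gbp2 and Samhd1 rose with treatment, Stat2 fell, Isg15 was higher in each treated library without passing the test, and Bst2 had the highest level per kilobase. Capitals mark the ISRE core and the GAS, and overlapping matches run together.
Ifit1, chr19:34640639-34640938, + strand: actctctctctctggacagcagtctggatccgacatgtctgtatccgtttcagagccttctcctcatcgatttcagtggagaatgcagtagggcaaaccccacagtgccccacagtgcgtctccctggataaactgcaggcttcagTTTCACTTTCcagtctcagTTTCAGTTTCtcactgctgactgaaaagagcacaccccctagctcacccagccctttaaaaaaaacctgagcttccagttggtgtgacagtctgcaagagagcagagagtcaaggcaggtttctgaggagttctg
Gbp2, chr3:142620413-142620712, + strand: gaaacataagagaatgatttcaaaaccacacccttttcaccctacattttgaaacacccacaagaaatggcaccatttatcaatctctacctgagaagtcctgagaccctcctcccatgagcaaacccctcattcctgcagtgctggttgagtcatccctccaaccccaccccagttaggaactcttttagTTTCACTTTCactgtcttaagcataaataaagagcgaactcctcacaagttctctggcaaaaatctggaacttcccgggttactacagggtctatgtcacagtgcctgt
Samhd1, chr2:157135047-157135346, − strand: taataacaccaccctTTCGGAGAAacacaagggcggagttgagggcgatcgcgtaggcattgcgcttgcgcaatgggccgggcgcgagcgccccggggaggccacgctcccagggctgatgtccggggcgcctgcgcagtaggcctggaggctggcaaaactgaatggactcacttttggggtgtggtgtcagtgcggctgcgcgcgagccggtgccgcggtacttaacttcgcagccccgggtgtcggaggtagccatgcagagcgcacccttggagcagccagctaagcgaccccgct
Isg15, chr4:156200769-156201068, − strand: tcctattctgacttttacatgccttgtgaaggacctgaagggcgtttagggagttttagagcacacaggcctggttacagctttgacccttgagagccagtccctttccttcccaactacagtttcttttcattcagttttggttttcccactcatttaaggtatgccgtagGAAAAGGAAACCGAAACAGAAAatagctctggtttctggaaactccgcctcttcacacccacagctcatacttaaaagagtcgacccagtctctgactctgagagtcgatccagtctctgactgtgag
Bst2, chr8:71537423-71537722, − strand: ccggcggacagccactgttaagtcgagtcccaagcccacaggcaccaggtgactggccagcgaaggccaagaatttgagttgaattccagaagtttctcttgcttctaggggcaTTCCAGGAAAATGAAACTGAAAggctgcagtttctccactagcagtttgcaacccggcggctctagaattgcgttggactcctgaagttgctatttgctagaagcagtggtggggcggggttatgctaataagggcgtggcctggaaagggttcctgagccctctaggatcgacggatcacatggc
Stat2, chr10:128270248-128270547, + strand: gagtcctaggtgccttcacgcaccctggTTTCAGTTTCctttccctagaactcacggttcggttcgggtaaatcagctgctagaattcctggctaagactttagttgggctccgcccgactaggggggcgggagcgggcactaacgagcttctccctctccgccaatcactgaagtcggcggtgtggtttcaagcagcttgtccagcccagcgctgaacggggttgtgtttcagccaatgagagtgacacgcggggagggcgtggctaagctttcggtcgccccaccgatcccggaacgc

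Ifit1 held 2 separate ISRE cores, the nearer one starting 85 bases before the start of transcription. Gbp2 held a single core 59 bases before the start, and Isg15 a run of 3 overlapping cores. Samhd1 held no ISRE core in this window and 1 GAS, 235 bases before the start. Bst2 carried 2 overlapping cores that also overlap a GAS. The Stat2 core lay farther out, 222 bases before the start. A match of letters describes these windows and is no evidence that a factor binds there. Mx2, which also rose, had no entry in the promoter table. In the mm10 coordinates of the files, the Ifit1 gene spans chromosome 19, 34640871 to 34650009, Gbp2 chromosome 3, 142620602 to 142638008, and Samhd1 chromosome 2, 157097533 to 157135265. Mx2 spans chromosome 16, 97535308 to 97560900, and Stat2 chromosome 10, 128270559 to 128292849. The distances above count from RefSeq starts, which can differ from the gene starts of the files, as for Gbp2 and Samhd1. The Gbp2 core lies inside the gene as the files give it.

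Depth differed widely between libraries. Total counts were 4031144 and 3160824 in the control and treated library of line 240, 3354980 and 604984 in line 242, and 13221186 and 13766638 in line 352. The treated library of line 242 stood apart, with the lowest depth and 11.8% of its counts from mitochondrial genes, against 1.84% to 3.10% in the other 5. Levels are CPM, counts scaled by library size. A count of 0 allows up to 3 counts, which equal 5.57 CPM in that library and 0.210 CPM in the treated library of line 352. Results are therefore given with line 242 and without it. Summed over 11 markers of T cells, among them Lck and Rag1, the level was 1999 to 5212 CPM. With treatment this sum went from 5090 to 5212 CPM in line 240, from 4778 to 2344 in line 242 and from 3052 to 1999 in line 352. Not every T-cell marker was high. Ptcra had 0 counts in the treated library of line 242, and Rag2 stood at 4.75 to 8.41 CPM in lines 242 and 352. All 6 libraries lacked counts of Lyz2 (myeloid cells), Siglech (plasmacytoid dendritic cells), and Ncr1 and Klrd1 (NK cells), each a defining marker of its cell type. Other genes on those lists were present: the 5 markers of plasmacytoid dendritic cells, a main source of type I interferon, summed to 67.7 to 169 CPM in controls and 75.1 to 475 CPM after treatment, mostly from Ccr9 and Tcf4. The 6 myeloid markers, mostly Itgam, summed to 11.7 to 47.8 and 15.0 to 59.4 CPM, the 4 NK markers, mostly Gzma, to 56.9 to 105 and 21.2 to 74.6 CPM, and the 5 stromal markers, mostly Pecam1, to 45.0 to 70.8 and 45.6 to 66.8 CPM. The 5 B-cell markers summed to at most 0.496 CPM in controls and to 3.19, 83.5 and 1.33 CPM in the treated libraries of lines 240, 242 and 352, mostly from Pax5. The part of these marker levels in the results below was not tested. In bulk RNA a change in the share of cells that express a gene and a change in RNA per cell cannot be told apart.

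Before treatment, the levels of the 35 members ranged from clear expression to 0, with no clear gap between. Compared per kilobase of merged exons, Bst2, a membrane protein that tethers budding virus, led the control libraries with 77.5 CPM per kb (SD 1.90, n = 3). Trim25, a ubiquitin ligase of the RNA-sensing pathway, followed at 20.4 CPM per kb (SD 1.91), and Dtx3l, a ubiquitin ligase that pairs with Parp9, at 17.7 (SD 5.69). Bst2 and Trim25 were further apart than their spreads, whereas Trim25 and Dtx3l were not. Irf1 (13.9, SD 5.43), Eif2ak2 (12.1, SD 0.820), Ifit2 (11.7, SD 1.32), Parp9 (11.4, SD 4.49) and Stat2 (10.9, SD 3.67) came next in CPM per kb, each within the spread of its neighbour. At the other end, Oas1a had 0 counts in every control, and Xaf1, Oasl1, Oas2 and Oasl2 each had at most 0.0579 CPM per kb in any control library. Oas1a and Oas2 make 2′-5′ oligoadenylate, the activator of RNase L, and Xaf1 is a pro-apoptotic interferon target.

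**Figure D1:**
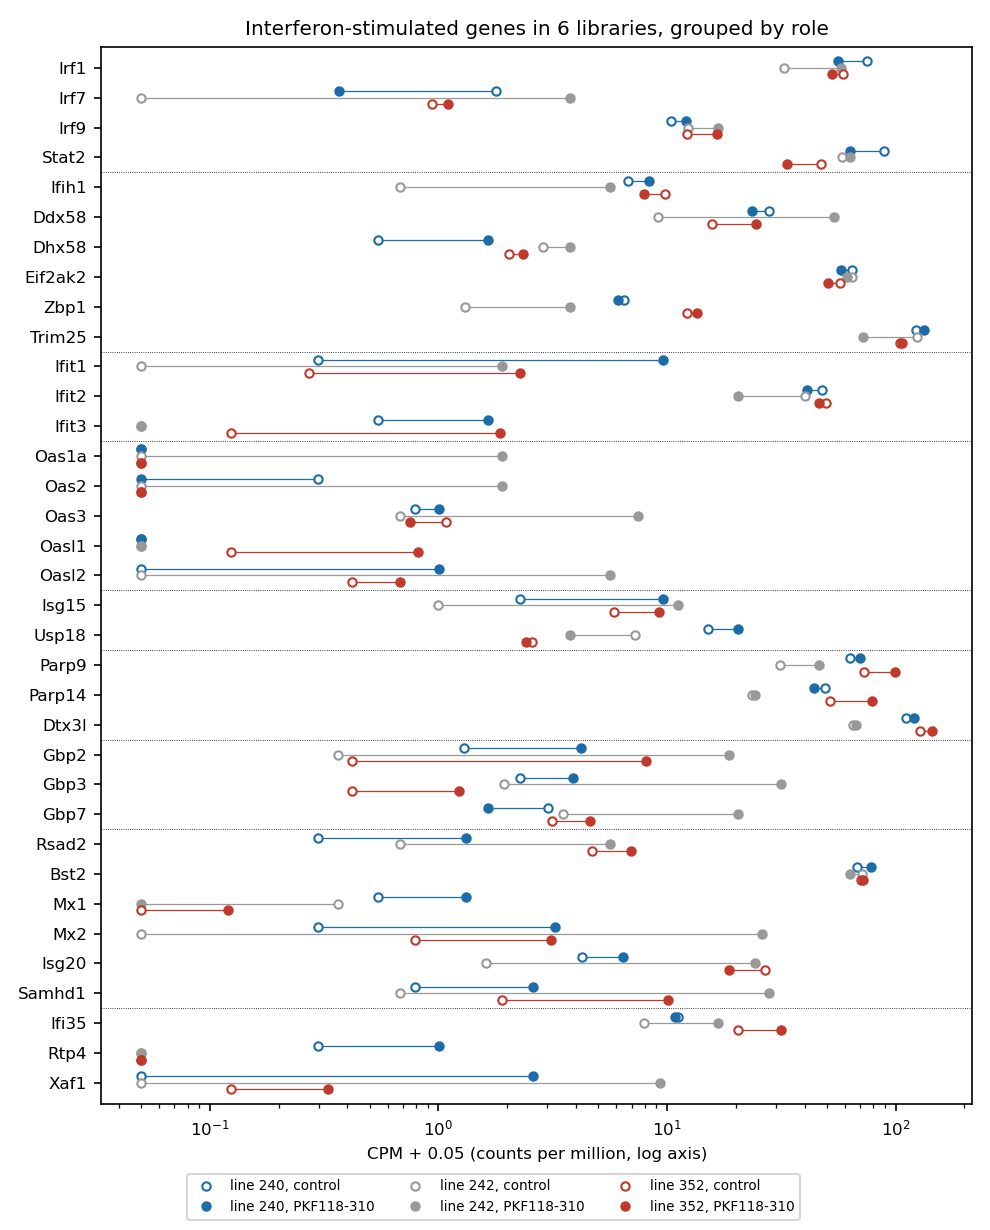
Level of each of the 35 interferon-stimulated genes in the 6 libraries, as CPM plus 0.05 on a log axis, with genes grouped by role between dotted lines. Open circles are controls and filled circles PKF118-310, joined within a line. Genes such as Bst2, Dtx3l and Eif2ak2 show short lines at the right, and the longest lines belong to genes at the left, many of them in line 242.

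The first question was whether PKF118-310 changed these genes across all 3 lines. In the fit of 3 lines, 10331 genes were tested and 0 passed an adjusted p below 0.05 (edgeR quasi-likelihood, Benjamini-Hochberg), which is 0% of them, and 0 of the 21 tested members passed. At an unadjusted p below 0.05 there were 570 genes, 3 of them members, and DESeq2 called 35 genes higher and 10 lower. Those 3 members were Gbp2, with a log2 fold change of 3.79 (SE 0.92), Mx2 with 3.76 (SE 1.24) and Isg15 with 1.79 (SE 0.67), each at an edgeR adjusted p of 0.842. Of the 21 tested members, 7 moved up within each of the 3 lines (Irf9, Isg15, Parp9, Dtx3l, Gbp2, Rsad2 and Mx2), against 15.9% of all tested genes. Gbp2 and Mx2 had at most 1.24 and 0.738 CPM in any control and entered the test mainly through their treated libraries. The number 7 is therefore a description only. Eif2ak2 and Ifit2 moved down within each line, 2 of 21 against 17% of all tested genes.

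Without line 242, a subset of the genes did pass. In the fit of lines 240 and 352, with 11760 genes tested, 26 members could be tested and 4 rose: Ifit1, Gbp2, Mx2 and Samhd1. Over all genes, 5.01% rose. One member fell, Stat2, against 5.92% of all genes. The median log2 fold change was 0.29 over the 26 tested members and -0.01 over all genes tested. It was 0.12 with a stricter filter and 0.09 over the 13 members at or above 10 CPM. All 4 genes that rose were low in controls and entered the test mainly through their treated libraries, so their number is given as a description and not as a share of the members. The other 9 members had too few counts to be tested. DESeq2 called none of the 26 members in these 2 lines, against 113 genes higher and 155 lower in all. It gave 17 members, including the 4 that rose, no adjusted p because their counts were low, and gave Stat2 an adjusted p of 0.279. Its unadjusted p ran from 0.000596 for Ifit1 to 0.0443 for Mx2 among these 5 genes.

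Ifit1, an RNA-binding protein that blocks translation of viral messages lacking a host cap mark, was nearly silent in controls. It had 1, 0 and 3 counts in the controls of lines 240, 242 and 352 and 30, 1 and 32 counts after PKF118-310. The treated libraries of lines 240 and 352 lay above every control, and the single count of line 242 is below the 3 counts that a count of 0 there would allow. Within line 240 the ratio of treated to control level was 38.6 (95% interval 6.41 to 1573, counting error only), and within line 352 it was 10.1 (3.16 to 51.5). Over these 2 lines the log2 fold change was 4.01 (SE 0.75, edgeR quasi-likelihood adjusted p = 0.00587).

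The other IFIT genes did not follow Ifit1 as a group. Ifit3, of the same family, had 2, 0 and 1 counts in controls and 5, 0 and 26 after treatment, so that line 352 supplied most of the difference. Its log2 fold change in lines 240 and 352 was 3.18 (SE 0.97, edgeR adjusted p = 0.0542), short of the threshold. It passed with DESeq2 size factors (edgeR adjusted p = 0.0488) and in the likelihood ratio test (adjusted p = 0.00146). It did not pass with library totals (edgeR adjusted p = 0.0782) or no filter (0.0847). The near-identical copy Ifit3b had 0, 0 and 2 control counts and 1, 0 and 13 treated counts, and how reads matching both genes were counted is not stated. Ifit2, a pro-apoptotic relative, was expressed at 47.6, 39.9 and 49.8 CPM in controls. It stood at 40.8, 20.4 and 46.2 CPM after treatment, below the control in each line, with a log2 fold change of -0.16 in lines 240 and 352 (SE 0.13, edgeR adjusted p = 0.503).

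Guanylate-binding proteins are GTPases that attack the membranes around intracellular microbes and are classic targets of interferon γ. Gbp2 stood at 1.24, 0.314 and 0.369 CPM in the controls of lines 240, 242 and 352, from 5, 1 and 5 counts. After PKF118-310 it stood at 4.15, 18.6 and 8.03 CPM, from 13, 10 and 115 counts. The control and treated groups did not overlap, but the share of all genes without overlap was not counted. In line 242, 83.7% of all genes under 10 CPM with any count were higher after treatment. For Gbp2 the ratio of treated to control level was 3.34 in line 240 (95% interval 1.12 to 12.0), 59.0 in line 242 (8.40 to 2561) and 21.8 in line 352 (9.06 to 68.3). In lines 240 and 352 the log2 fold change was 3.40 (SE 0.65, edgeR adjusted p = 0.00656). Among the alternative analyses of the treatment, Gbp2 passed in more than any other member. These alternatives reuse the same counts, so the passes are not independent evidence. A stricter filter dropped Gbp2 for its low counts, and DESeq2 in lines 240 and 352 gave it no adjusted p.

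Gbp3 and Gbp7 gave less clear values. Gbp3 had 2.23, 1.89 and 0.369 CPM in controls and 3.83, 31.6 and 1.19 CPM after treatment. It was thus higher in each treated library than in its own control, but the groups overlapped and the log2 fold change in lines 240 and 352 was 1.18 (SE 0.68, edgeR adjusted p = 0.301). Gbp7 stood at 2.98, 3.46 and 3.10 CPM in controls. After treatment it was 1.59 CPM in line 240, 20.4 in line 242 and 4.54 in line 352, with no common direction. Reads of this family can match several of its members, so the split between Gbp2, Gbp3 and Gbp7 is uncertain.

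The same family held the clearest changes among the interferon-stimulated genes outside the 35. Gbp4 went from 22.6 to 63.1 CPM in line 240, from 29.2 to 81.7 in line 242 and from 72.5 to 247 in line 352. In lines 240 and 352 its log2 fold change was 1.67 (SE 0.12, edgeR adjusted p = 2.45e-05), and within lines the ratios of 2.80, 2.79 and 3.41 lay close together. Gbp9 had 13.4, 15.4 and 25.4 CPM in controls and 33.2, 29.7 and 62.2 CPM after treatment (log2 fold change 1.29, SE 0.15, edgeR adjusted p = 0.000495). Gbp8 rose by 0.74 on the log2 scale (SE 0.15, adjusted p = 0.00805) and Gbp6 by 1.71 (SE 0.42, adjusted p = 0.0229). In the coordinates of the files Gbp4, Gbp8 and Gbp9 overlap on the − strand of chromosome 5, so these 3 genes may not be independent counts. In the fit of 3 lines Gbp4 had an edgeR adjusted p of 0.614 despite a log2 fold change of 1.59.

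**Figure D2:**
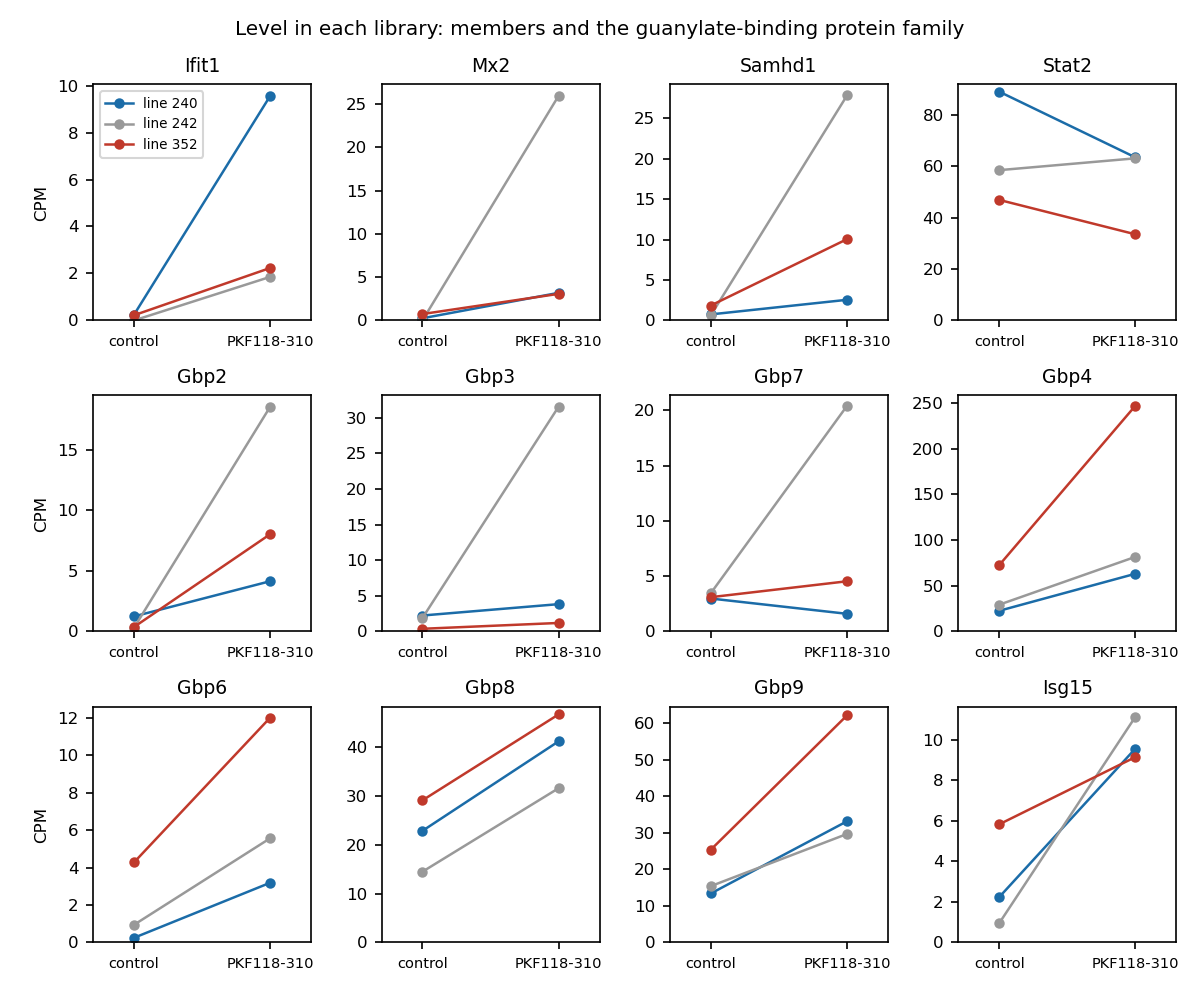
CPM of 8 members (Ifit1, Mx2, Samhd1, Stat2, Gbp2, Gbp3, Gbp7 and Isg15) and 4 related genes in control and PKF118-310 libraries, 1 line per T-ALL line and a separate axis from 0 for each gene. Gbp4, Gbp8 and Gbp9 are higher after treatment in each line, whereas Gbp7 is lower in line 240 and Stat2 is lower in lines 240 and 352 but not in line 242.

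Among antiviral effectors, Mx2 and Samhd1 rose. Mx2, a dynamin-like GTPase that restricts viruses, had 1, 0 and 10 control counts and 10, 14 and 44 treated counts. Expressed as CPM, it went from 0.248 to 3.19 in line 240, from 0 to 26.0 in line 242 and from 0.738 to 3.07 in line 352. Every treated library was above every control, and the share of all genes for which this holds was not counted. The log2 fold change of Mx2 in lines 240 and 352 was 2.38 (SE 0.68, edgeR adjusted p = 0.0421). In line 242, where the control was empty, the lower 95% limit of the ratio of treated to control level was 19.6. The summed level of all genes under 10 CPM gave a ratio of 9.02 in that line, which is an unlike measure. Of 38360 genes with 0 counts in the control of line 242, 3836 had 3 or more counts in its treated library. The Mx2 call was lost with scaling by library totals (edgeR adjusted p = 0.0601), in the first lane alone (0.260) and with halved counts of line 352 (0.0807).

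Samhd1, which depletes the nucleotides that retroviruses need for DNA synthesis, had 3, 2 and 25 control counts and 8, 15 and 144 treated counts. That is 0.744, 0.629 and 1.84 CPM in controls and 2.55, 27.8 and 10.1 CPM after PKF118-310. The groups did not overlap, and how often this holds among all genes was not counted. The ratio within line 352 was 5.45 (95% interval 3.55 to 8.71), whereas that of line 240, 3.43, had an interval of 0.823 to 20.1 that includes 1. In lines 240 and 352 the log2 fold change was 2.31 (SE 0.46, edgeR adjusted p = 0.00829).

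The remaining effectors did not change together. Bst2 stood at 68.0, 71.1 and 70.8 CPM in controls and at 77.8, 63.1 and 72.0 CPM after treatment. Its log2 fold change was 0.09 in lines 240 and 352 (SE 0.12, edgeR adjusted p = 0.677). Rsad2, or viperin, which makes a chain-terminating nucleotide, was higher in each treated library than in its own control, at 0.248, 0.629 and 4.65 CPM before and 1.28, 5.57 and 6.91 after. The control of line 352 lay above the treated library of line 240, and the log2 fold change was 0.73 (SE 0.48, edgeR adjusted p = 0.371). Isg20, an RNA exonuclease, moved in opposite directions, from 4.22 to 6.38 CPM in line 240, from 1.57 to 24.1 in line 242 and from 26.9 to 18.6 in line 352. Mx1 had at most 4 counts in any library.

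Of the 4 transcription factors of the pathway among the members, 3 were tested in lines 240 and 352, and 0 passed as higher. Stat2, a subunit of the factor that binds the ISRE, had 89.1, 58.5 and 46.9 CPM in controls. After PKF118-310 it had 63.5, 63.1 and 33.5 CPM, lower in lines 240 and 352 and slightly higher in line 242. The groups overlapped because the lines differed more than the treatment did. Within lines 240 and 352 the ratio was 0.713 (95% interval 0.596 to 0.850) and 0.714 (0.633 to 0.806). The log2 fold change over these 2 lines was -0.49 (SE 0.12, edgeR adjusted p = 0.0243). The Stat2 call was lost in either lane alone (adjusted p = 0.0665 and 0.0516) and with halved counts of line 352 (0.0539).

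Irf9, the DNA-binding partner of Stat2, was 10.4, 12.3 and 12.2 CPM in controls and 12.1, 16.7 and 16.6 CPM after treatment. It was higher in each line, yet the log2 fold change of 0.36 had an SE of 0.23 (edgeR adjusted p = 0.361). Irf1, an early target of interferon γ, stood at 75.2, 32.4 and 58.7 CPM in controls and 56.1, 57.5 and 52.8 CPM after treatment. Its log2 fold change in lines 240 and 352 was -0.27 (SE 0.13, edgeR adjusted p = 0.203). Irf7, which drives the late wave of type I interferon genes, had at most 15 counts in any library and was not tested.

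The RNA sensors changed little in lines 240 and 352. None of the 6 passed, and their log2 fold changes ran from -0.17 for Eif2ak2, a kinase that halts translation on sensing double-stranded RNA, to 0.51 for Dhx58, a regulator of the RIG-I-like receptors. Eif2ak2 was 64.3, 64.5 and 57.1 CPM in controls and 57.7, 61.2 and 50.8 CPM after treatment, lower in each line (log2 fold change -0.17 in lines 240 and 352, SE 0.12, edgeR adjusted p = 0.434). Trim25 was 123, 125 and 105 CPM in controls and 133, 72.4 and 107 CPM after treatment. Ddx58, the RNA sensor RIG-I, went from 28.0 to 23.6 CPM in line 240, from 9.12 to 53.8 in line 242 and from 15.7 to 24.4 in line 352. Ifih1 (MDA5) and Zbp1, a sensor of left-handed nucleic acid, stayed below 14 CPM in every library.

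Isg15, a ubiquitin-like modifier, was higher in each treated library than in any control, a separation whose share among all genes was not counted. It had 2.23, 0.943 and 5.83 CPM in the controls of lines 240, 242 and 352, and 9.57, 11.1 and 9.15 CPM after PKF118-310. The ratio was 4.29 in line 240 (95% interval 1.98 to 10.3), 11.8 in line 242 (2.52 to 72.9) and 1.57 in line 352 (1.18 to 2.10). All genes under 10 CPM, summed, gave a ratio of 9.02 in line 242. In lines 240 and 352 the log2 fold change of 1.08 (SE 0.38) did not pass (edgeR adjusted p = 0.0918). It passed with no filter (edgeR adjusted p = 0.0232) and in the likelihood ratio test (adjusted p = 0.0271). With a stricter filter it did not pass (edgeR adjusted p = 0.132). Usp18, the protease that removes Isg15 from proteins and also dampens receptor signalling, went from 15.1 to 20.4 CPM in line 240, from 7.23 to 3.71 in line 242 and from 2.51 to 2.37 in line 352.

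Parp9, Parp14 and Dtx3l, which act in ADP-ribosylation and ubiquitin signalling, were among the abundant members. Parp9 was 63.0, 31.1 and 73.0 CPM in controls and 69.8, 46.4 and 99.1 CPM after treatment. It was higher in each line, with a log2 fold change of 0.32 in lines 240 and 352 (SE 0.12, edgeR adjusted p = 0.121). Dtx3l was 112, 65.1 and 128 CPM in controls and 120, 66.8 and 145 CPM after treatment, and Parp14 went from 48.9 to 44.0 CPM in line 240, from 23.6 to 24.1 in line 242 and from 51.8 to 78.7 in line 352. Parp9 and Dtx3l overlap at their starts on opposite strands of chromosome 16, and whether strand was used in counting is not stated. Ifi35, an adaptor-like protein, was 11.2, 7.86 and 20.4 CPM in controls and 10.8, 16.7 and 31.5 CPM after treatment (log2 fold change 0.43, SE 0.21, edgeR adjusted p = 0.224).

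The 5 Oas genes among the members, Xaf1 and Rtp4 stayed below the count filter. Oas1a had 1 count and Oas2 had 2 over all 6 libraries. Oas3 had 3, 2 and 14 control counts and 3, 4 and 10 treated counts. Oasl1 was counted only in line 352, with 1 count before and 11 after treatment, a ratio of 10.4 with a 95% interval of 1.51 to 448. Oasl2 had 0, 0 and 5 control counts and 3, 3 and 9 treated counts. Xaf1 had 0, 0 and 1 control counts and 8, 5 and 4 treated counts, for which the lower 95% limit of the ratio was 2.19 in line 240 and 5.41 in line 242, the latter below the 9.02 of all genes under 10 CPM in that line. Rtp4, a chaperone of receptors, had 1 count before and 3 after treatment in line 240 and none elsewhere.

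**Figure D3:**
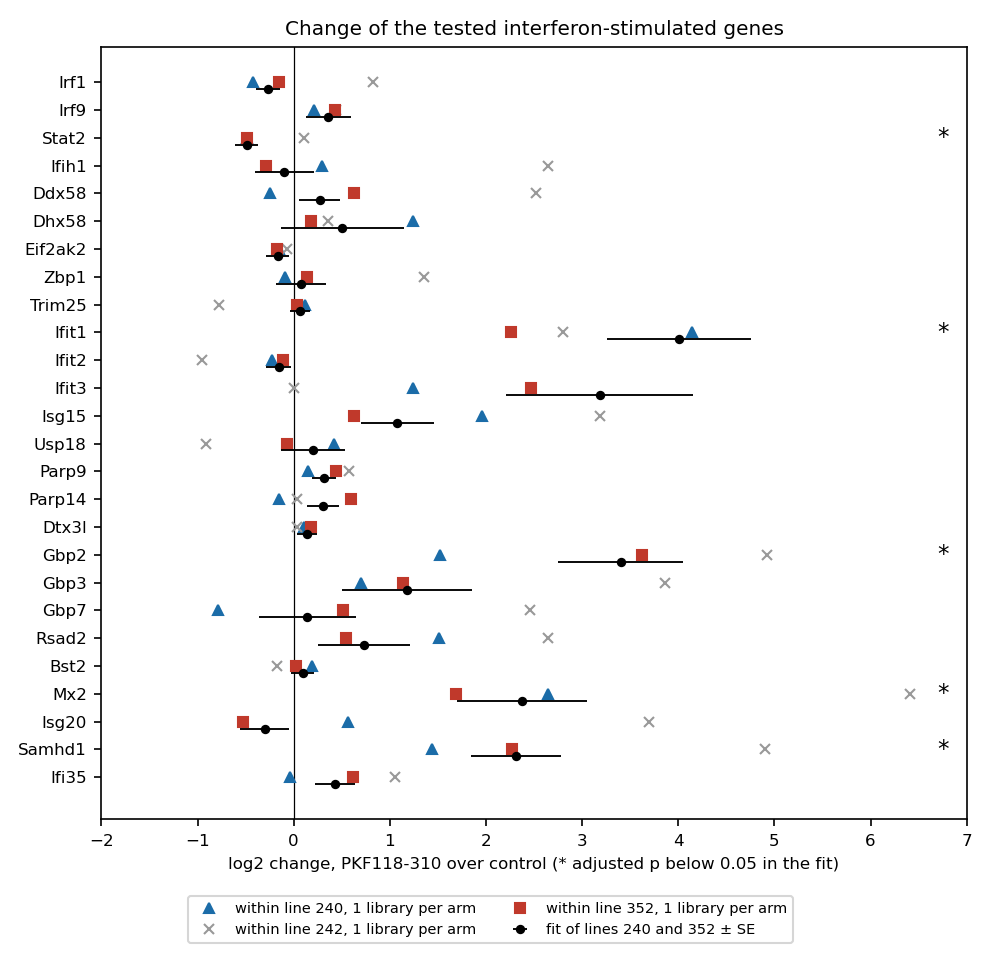
Log2 change, PKF118-310 over control, of the 26 interferon-stimulated genes tested in lines 240 and 352. Coloured symbols are the changes within each line with no error, black circles the fitted log2 fold change with its SE, and asterisks mark the 5 genes with an adjusted p below 0.05, of which Stat2 alone lies below 0.

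Members were also summed by level, tested or not. The 22 members that averaged under 10 CPM over the 6 libraries summed to 42.9 CPM in the control and 80.7 CPM in the treated library of line 240, a ratio of 1.88, and to 46.1 and 76.6 CPM in line 352, a ratio of 1.66. All 43616 genes under 10 CPM, summed in the same way, gave ratios of 1.11 and 1.05 in these lines. In line 242 the 22 members went from 20.8 to 189 CPM, a ratio of 9.12, and all genes under 10 CPM gave 9.02. The higher sum of the low members in line 242 was therefore of the size found for low genes at large in that library. Without the 4 genes that rose, a sum taken after their values were seen, the other 18 gave ratios of 1.51, 5.81 and 1.24 in lines 240, 242 and 352. By number, 16 of the 20 low members with any count in line 240 were higher after treatment, 17 of 19 in line 242 and 16 of 19 in line 352, against 67.2%, 83.7% and 62.8% of all genes under 10 CPM with any count. The 13 members at or above 10 CPM summed to 744 and 716 CPM in line 240, 541 and 586 in line 242, and 716 and 776 in line 352, and 6, 9 and 8 of the 13 were higher.

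The treatment response of line 242 was set against that of lines 240 and 352 in 1 model. Line 242 supplies a single pair of libraries there, so the spread comes from lines 240 and 352 alone, and the treated library of line 242 is assumed to vary like theirs. Among 21 tested members 4 passed, against 22.4% of all tested genes. The difference in log2 fold change was 1.09 for Irf1 (SE 0.34, edgeR adjusted p = 0.0356), 2.29 for Ddx58 (SE 0.53, adjusted p = 0.0104), 4.21 for Isg20 (SE 0.84, adjusted p = 0.00508) and -0.85 for Trim25 (SE 0.25, adjusted p = 0.0320). The change with treatment was thus more positive in line 242 than in the other lines for the first 3 and more negative for Trim25. This compares changes and not levels. The share is close to that of all genes. The contrast rests on 1 control and 1 treated library of line 242, the latter with 604984 counts. A difference between lines cannot be told apart from one of these libraries. For Irf1 the control of line 242 stood lowest, at 32.4 CPM against 75.2 and 58.7 in lines 240 and 352. Its treated levels were 56.1, 57.5 and 52.8 CPM in lines 240, 242 and 352.

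The lines also differed in their basal levels by value. The test between lines took all 6 libraries, treated ones included, and adjusted for treatment, so it is no test of control levels alone. In it 0 of 21 tested members passed (edgeR adjusted p below 0.05), against 5.32% of all tested genes. The smallest adjusted p was 0.0635, for Dtx3l, and 8 members had an unadjusted p below 0.05. Isg20 ranged from 1.57 CPM in the control of line 242 to 26.9 in that of line 352, and Usp18 from 2.51 CPM in line 352 to 15.1 in line 240. Parp9, Parp14 and Dtx3l were each lowest in the control of line 242.

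Genes of the interferon pathway around the members were then read from lists. Of 12 interferon genes, 10 had 0 counts in every library, while Ifng had 1 count in the treated library of line 242 and Ifna11 had 1 in the control of line 240. The counts below are from the fit of lines 240 and 352, in which 5.01% of all genes rose and 5.92% fell. Of 10 tested receptors and kinases, 2 fell and 0 rose. Ifngr1, the ligand-binding chain of the interferon γ receptor, stood at 537, 1136 and 184 CPM in controls and 389, 813 and 88.4 CPM after treatment. It was lower in each line, with a log2 fold change of -0.77 in lines 240 and 352 (SE 0.14, edgeR adjusted p = 0.00477). Jak2, the kinase of that receptor, fell by 0.49 on the log2 scale (SE 0.12, adjusted p = 0.0242).

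Of 11 tested inhibitors of interferon signalling, 2 fell and 0 rose. These were Ptpn6, the phosphatase SHP-1 (log2 fold change -0.50, SE 0.12, edgeR adjusted p = 0.0180), and Pias1, a SUMO ligase (-0.46, SE 0.11, adjusted p = 0.0214). None of the 11 tested sensors and adaptors upstream of interferon passed. Among 48 other interferon-stimulated genes 33 were tested, of which 5 rose and 1 fell. Beside the 4 Gbp genes, Lgals3bp, a secreted glycoprotein, rose by 0.49 (SE 0.13, adjusted p = 0.0257), and Rnf213, a large ubiquitin ligase, fell by 0.41 (SE 0.12, adjusted p = 0.0468). Of 12 genes of MHC class I presentation 2 rose: Tap2, a subunit of the peptide transporter, by 0.69 (SE 0.13, adjusted p = 0.00529) and Psme2, a proteasome activator, by 0.42 (SE 0.12, adjusted p = 0.0407). By CPM, the most abundant gene did not pass in 4 of the 5 lists, Ifngr1 being the exception. Jak1, the next among receptors and kinases, which serves both types of receptor, averaged 274 CPM in controls (SD 58.6, n = 3) and 306 after treatment (SD 127), with a log2 fold change of -0.09 in lines 240 and 352 (SE 0.11, edgeR adjusted p = 0.642). Ly6e, a membrane-anchored antiviral protein, averaged 1234 CPM in controls (SD 440) and 829 after treatment (SD 412), at -0.35 (SE 0.13, adjusted p = 0.125). B2m, the light chain of MHC class I, had a log2 fold change of 0.21 (SE 0.11, adjusted p = 0.267), Tbk1, a kinase that activates Irf3, one of 0.11 (SE 0.12, adjusted p = 0.620), and Usp25, a deubiquitinase, one of -0.26 (SE 0.10, adjusted p = 0.133). The lists' median log2 fold changes were 0.20 for other interferon-stimulated genes, 0.26 for MHC class I, 0.17 for sensors, -0.11 for receptors and kinases and -0.26 for inhibitors, beside -0.01 for all genes.

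**Figure D4:**
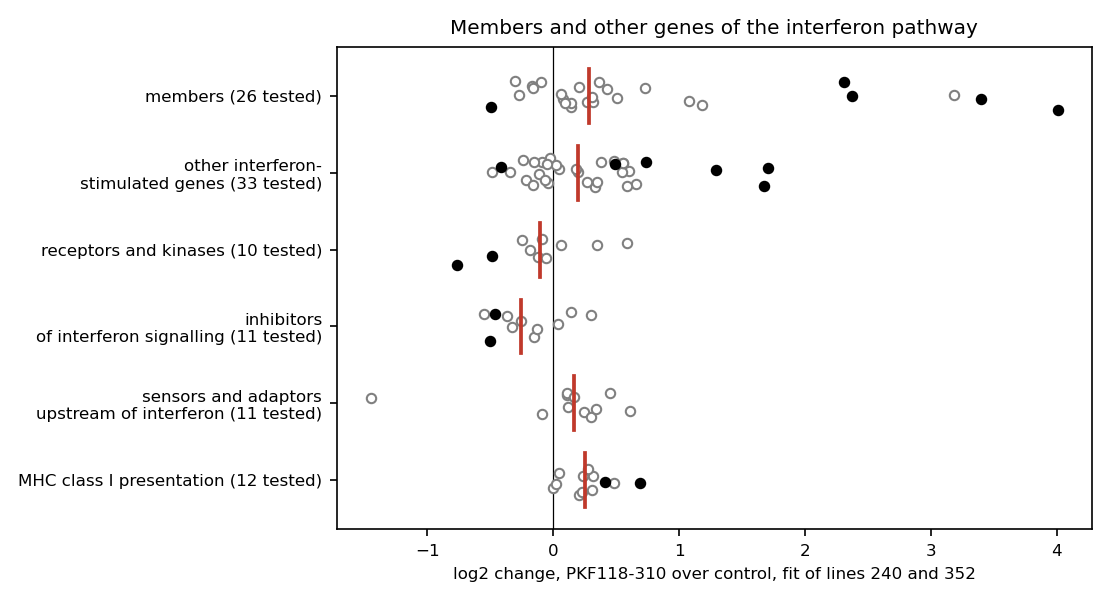
Log2 fold change of each tested gene in the fit of lines 240 and 352, by list, with filled circles for an adjusted p below 0.05, open circles for the rest, and a red bar at the list's median. Members and other interferon-stimulated genes hold the points above 1, and the filled points of receptors, kinases and inhibitors lie below 0.

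The genes outside the lists whose levels most resembled the mean log2 CPM of the 21 tested members over the 6 libraries were Nbeal2, with a Pearson correlation of 0.992, Fam168a (0.991) and Atp6ap1 (0.986), and the tenth, Itga10, had 0.973. With 6 libraries from 3 lines and 1 library standing apart, these values are a description. The mean itself was 3.87, 3.10 and 4.10 in the controls of lines 240, 242 and 352 and between 4.21 and 4.53 after treatment.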

How the data were processed

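Poly(A) RNA of 3 T-ALL lines was made into stranded libraries, 1 control and 1 PKF118-310 library per line. The 12 files deposited by the authors hold raw gene counts, 1 file per library and lane, with no normalization. HISAT2, HTSeq, edgeR and mm10 are named in the submitters' processing notes, while the methods of the study name TopHat. Tool versions, the annotation and whether strand was used: not given in the sources used here. Lanes are technical repeats per the labels, whereas the study's supplement speaks of separate cultures. The labels were followed and lane counts summed. Chi-square per degree of freedom between lanes was 0.98 to 1.02 in lines 240 and 242 but 2.01 and 2.05 in line 352, so counting intervals of line 352 are too narrow. Control and treated library of a line come from the same animal's cells and were kept as a pair. Their deviations from the group means correlated at 0.67, 0.30 and 0.79 in lines 240, 242 and 352.

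Genes were kept by filterByExpr, scaled by TMM and tested with the quasi-likelihood test of edgeR 4.0.16 in R 4.3.3, the line as block, over all kept genes. CPM use TMM-scaled library sizes of the 3-line fit. Log2 changes within a line use a prior count of 2, which pulls low genes toward 0, and carry no test. Ratios carry exact conditional 95% intervals. Intervals and limits for a count of 0 (3 counts) cover counting error only. Lengths are merged GENCODE vM21 exons. The alternatives were other scaling, filters and lanes, DESeq2 1.42.0, limma 3.58.1 voom with sample weights, and each line left out. The scripts were tested on simulated data. The members and lists, the comparison without line 242 and the rule for named genes (all members by role, and listed pathway genes past the threshold with a few of the most abundant) were chosen with earlier results of these data known.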

Additional observations from a re-analysis of the deposited data

Results flagged for a closer look

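Irf1, Ddx58, Isg20 and Trim25 passed the test of a difference in response between line 242 and lines 240 and 352 (edgeR quasi-likelihood, adjusted over 10331 genes). Line 242 supplies 1 pair of libraries, so the spread in this test comes from lines 240 and 352 alone, and the result describes these libraries. The difference in log2 fold change was 1.09 for Irf1 (adjusted p = 0.0356), with changes of -0.42, 0.82 and -0.15 within lines 240, 242 and 352. For Ddx58 it was 2.29 (adjusted p = 0.0104), with -0.25, 2.52 and 0.62 within the lines. For Isg20 it was 4.21 (adjusted p = 0.00508), with 0.56, 3.70 and -0.52 within the lines. For Trim25 it was -0.85 (adjusted p = 0.0320), with 0.11, -0.78 and 0.03 within the lines. Of all tested genes 22.4% differed in the same way. The treated library of line 242 had 604984 counts, of which these genes held 31, 29, 13 and 39, and 11.8% of its counts were mitochondrial. The part of depth and of RNA quality in these differences was not tested.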

How the results depend on the processing

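In 3 lines, where 0 genes and 0 members passed, 312 genes and 3 members (Gbp2, Mx2 and Samhd1) passed with no filter, 45 and 1 (Gbp2) with DESeq2, 85 and 1 (Gbp2) with the likelihood ratio test, and 801 and 2 (Gbp2 and Stat2) with sample weights. Leaving out a line gave 3 to 1285 genes and 0 to 5 members, the upper values without line 242. The median over members, 0.37, ran from 0.03 with a stricter filter, over 0.10 and 0.15 in the lanes alone and 0.21 with sample weights, to 0.76 with no filter, which adds members with very low counts. In lines 240 and 352, where 1285 genes and 5 members passed, 0 and 0 passed with no replicate block, so these calls rest on pairing control and treated library of a line. A stricter filter gave 698 and 1 (Stat2, since the 4 that rose are too low to be kept), DESeq2 268 and 0, the second lane 753 and 2, and halved counts of line 352 635 and 3. The first lane gave 3 members and library totals 4. DESeq2 size factors gave 6 members, adding Ifit3, no filter 6, adding Isg15, and the likelihood ratio test 7, adding both. Of genes that did not pass, Ifih1 turned to 0.16 and Gbp7 to -0.42 in the second lane, both with low counts. Leaving out a line from these 2 leaves 1 pair and no test. Between lines, where 550 genes and 0 members passed, no filter gave 3009 and 7, DESeq2 1665 and 4, the likelihood ratio test 2883 and 8, the first lane 847 and 1, and leaving out a line 209 to 5257 genes and 0 to 11 members, the upper values again without line 242. For line 242 against the others, where 2316 genes and 4 members passed, the likelihood ratio test gave 6 members and the first lane 1344 genes and 1 member (Isg20). Where no reason is given, the cause was not tested. By a set rule, 65 counts and medians were classed as unmoved: counts within a fixed fold of the main value, medians within the spread between lines. The lower medians over members given above fall within that wide limit, so the class does not mean that they held. A further 306 values were classed as unmoved. Among these, single-gene values kept their direction and side of the threshold, and sums moved by less than the spread between lines. Depth limits the low members most: in the treated library of line 242, 3 counts equal 5.57 CPM, and 19 of the 35 members averaged under 5 CPM in the controls of lines 240 and 352.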
